A study of Homo sapiens with 4 samples.

Results

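The keratin family was followed in poly(A) RNA of H2030 cells, a long-established line from a human lung adenocarcinoma, in 4 libraries. Keratin rows were taken by gene symbol (KRT, a number and at most one letter A to C, without the keratin-associated proteins), which gave 55 of the 20252 genes in the deposited table. The first group comprised 2 libraries labelled GALNT3 overexpression (GALNT3-OE-labelled below) and the second comprised 2 libraries labelled control vector (vector-labelled). Both kinds of cell were grown for 2 days in serum-containing medium and no further treatment is recorded. Whether the lines were clones or pools is not stated, nor whether replicates are separate cultures, so p-values reflect library-to-library spread alone, part of which can be technical. Levels are FPKM, fragments scaled to transcript length and to the fragments mapped in the library, which allows levels of different genes to be compared.

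Keratins are the intermediate filament proteins of epithelial cells. A filament is built from heterodimers of an acidic type I keratin and a basic type II keratin, and a cell normally makes at least one of each type. Simple epithelia such as alveoli, ducts and glands use KRT8 and KRT18, often with KRT7, KRT19 or KRT20. Stratified epithelia use KRT5 with KRT14 in the basal layer and KRT1 with KRT10 above it, mucosal linings use KRT4 with KRT13, and KRT6, KRT16 and KRT17 are associated with wounding and rapid growth. A further set is restricted to hair and nail. Keratin profiles are used in pathology to separate lung adenocarcinoma, in which KRT7, KRT8, KRT18 and KRT19 are typical, from squamous carcinoma, in which KRT5 and KRT6 are typical.

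GALNT3, the Golgi enzyme named in the labels, stood at 0.0164 and 0 FPKM in the GALNT3-OE-labelled libraries, against 4.34 and 5.34 FPKM in the vector-labelled libraries. The log2 difference was -2.53 ± 0.13 (SE; limma, adjusted p = 3.78e-04), the opposite of the label. Its size depends on the value added before the logarithm (1 here), and was -3.39 with 0.5 and -0.97 with 5. Why GALNT3 ran opposite to the label was not tested. Groups are therefore named below as the libraries were labelled, and every direction would turn if the labels were exchanged. Relative depth, read from the steps of low values, ranged from 0.966 to 1.07 of the arithmetic mean over the libraries. The smallest exact permutation p for 2 libraries against 2 is 0.333, so calls come from limma, which pools variance information across the 10998 genes that averaged 1 FPKM or more.

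H2030 expressed few keratins, and nearly all of the keratin message was KRT18 and KRT8. Of the 55 keratins, 37 were listed at 0 in all 4 libraries, 48 stayed below 1 FPKM in every library, and 7 reached the mean of 1 FPKM needed for the test. In order of mean level these were KRT18, KRT8, KRT80, KRT10, KRT7, KRT15 and KRT81. The 3 expressed simple keratins summed to 588 and 568 FPKM in the GALNT3-OE-labelled libraries, against 518 and 447 FPKM in the vector-labelled libraries. They made up 95.4% and 94.4% of all keratin FPKM in the GALNT3-OE-labelled libraries, against 93.5% and 92.0% in the vector-labelled libraries. The 18 stratified keratins together reached 12.1 and 10.1 FPKM, against 12 and 12.8 FPKM, and KRT10 and KRT15 supplied almost all of it. Simple keratins thus exceeded stratified keratins in each of the 4 libraries. The summed levels are descriptions without a test.

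**Figure D1:**
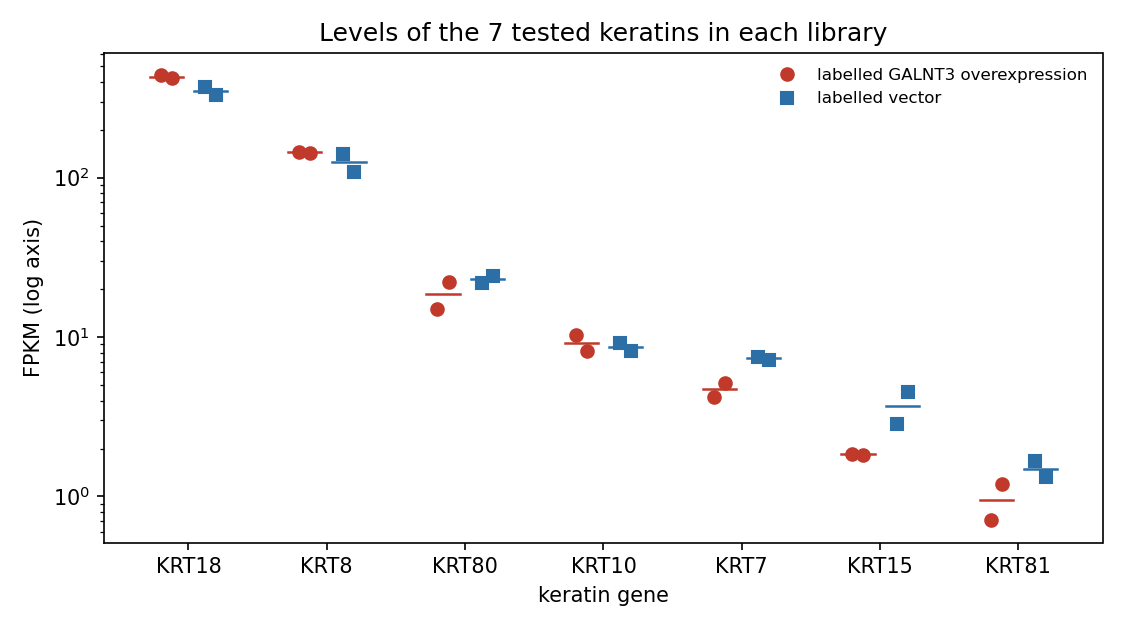
FPKM of the 7 tested keratins on a log axis, with a point per library and a bar at the mean of each group (n = 2 libraries). KRT18 and KRT8 lie above 100 FPKM in all 4 libraries, while the other 5 tested keratins lie at 24.04 FPKM or lower.

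Before the levels are compared, the identity of the messages needs a limit, because several keratins share long stretches with relatives. In GENCODE 29 transcripts, 35.1% of the 50-base stretches of KRT18 also occurred in other genes. These were 43 genes, all with symbols of the form used for pseudogenes. For KRT8 the share was 41.3% over 36 genes, for KRT81 it was 44.6% with KRT86 as the main partner, and for KRT86 it was 39.2%. KRT7, KRT15, KRT80 and KRT10 shared 0.997%, 0.725%, 0.420% and 0%, so their values are the least open to exchange with a copy. In all, 17 of the 55 keratins shared more than 10% of such stretches, and 14 shared none. How fragments with several matches were assigned is not given in the sources used here, so the values of KRT18, KRT8, KRT81, KRT83 and KRT86 are uncertain to that extent. The same holds for the low values of KRT31 and KRT34, which shared 14.2% and 11.4%, with KRT33B as the main partner.

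The hair keratins show the problem in sequence. The coding sequences of KRT81 and KRT86 were identical at 1349 of 1452 aligned bases, 92.9%, and those of KRT81 and KRT83 at 92.8%. The 80 bases in which KRT81 and KRT86 differ least run from base 61 to base 140 of the KRT81 coding sequence (GENCODE 29, coding strand, 5′ to 3′), where they are identical. A fragment from this stretch could be given to either gene.
KRT81: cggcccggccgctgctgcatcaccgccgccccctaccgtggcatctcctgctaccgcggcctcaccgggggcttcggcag
KRT86: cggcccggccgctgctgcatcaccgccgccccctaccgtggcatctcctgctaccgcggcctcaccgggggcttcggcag
The stretch in which KRT81 and KRT86 differ most, bases 1266 to 1345 of the KRT81 coding sequence, holds 26 differences and tells these genes apart. KRT83 stays close to KRT81 there, with 6 differences. Capitals mark bases that differ from KRT81.
KRT81: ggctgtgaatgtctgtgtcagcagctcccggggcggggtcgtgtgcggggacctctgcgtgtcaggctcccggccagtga
KRT86: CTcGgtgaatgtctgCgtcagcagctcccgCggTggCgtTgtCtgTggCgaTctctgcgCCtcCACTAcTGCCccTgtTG
KRT83: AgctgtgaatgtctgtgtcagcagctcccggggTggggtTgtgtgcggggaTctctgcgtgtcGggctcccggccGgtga

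The most abundant keratin has the same limit toward its processed copies. KRT18 and the pseudogene KRT18P11 on chromosome X were identical at 1226 of 1279 aligned bases, 95.9%.

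KRT18, the type I keratin of simple epithelia, was the most abundant family member and ranked 158 among all genes by mean FPKM. It lies on the plus strand of chromosome 12 from 52948871 to 52952901 (GRCh38, GENCODE 29). It stood at 439 and 419.6 FPKM in the GALNT3-OE-labelled libraries, against 369.6 and 331 FPKM in the vector-labelled libraries. Both libraries of the first group lay above both of the second. The means were 429 ± 14 and 350.1 ± 28 FPKM (SD, n = 2), a log2 difference of 0.30 ± 0.11 (SE; 95% interval 0.04 to 0.55). Its limma p was 0.0275 before adjustment over all genes and 0.570 after it. KRT18 supplied 71.3% and 69.7% of keratin FPKM in the GALNT3-OE-labelled libraries, against 66.7% and 68.0% in the vector-labelled libraries.

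KRT8, its type II partner, lies beside KRT18 on chromosome 12, from 52897187 to 52949954 on the minus strand, and the annotated genes overlap. It stood at 145 and 144 FPKM in the GALNT3-OE-labelled libraries, against 141 and 109 FPKM in the vector-labelled libraries. The groups did not overlap, but vector replicate 1 was close to the other group and vector replicate 2 set the difference. The log2 difference was 0.21 ± 0.13 (SE; limma, adjusted p = 0.801), 0.03 without vector replicate 2 and 0.40 without vector replicate 1. In bulk RNA, a change in the share of cells that make a keratin cannot be told apart from a change in message per cell. The median of all tested genes was also lowest in vector replicate 2, at 10.3 FPKM against 10.7 to 10.9 FPKM in the other libraries. With quantile normalization the log2 difference was 0.21 for KRT18 and 0.14 for KRT8, and the part of library composition in them was not tested.

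KRT7, the type II simple keratin of glandular and ductal epithelia and a usual marker of lung adenocarcinoma, was the lower one. It stood at 4.24 and 5.18 FPKM in the GALNT3-OE-labelled libraries, against 7.503 and 7.18 FPKM in the vector-labelled libraries. Every library of the first group lay below every library of the second. The means were 4.71 ± 0.67 and 7.34 ± 0.22 FPKM (SD, n = 2), which is 35.9% lower, with a log2 difference of -0.55 ± 0.12 (SE; 95% interval -0.82 to -0.28). Its p was 0.00187 before adjustment and 0.165 after it (limma), the smallest adjusted p of the 7 tested keratins. KRT7 lies on the plus strand of chromosome 12 from 52232520 to 52252186. The other simple keratins in the family, KRT19 and KRT20, both type I, were listed at 0 in all 4 libraries. KRT19 shared 1.79% of its 50-base stretches, with a pseudogene.

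Across the tested keratins, 0 of 7 passed limma at an adjusted p of 0.05, where 0.5% of all tested genes did (0.109% higher and 0.391% lower). At an unadjusted p below 0.05 there were 3 of 7 (KRT18 higher, KRT7 and KRT15 lower), against 7.34% of all tested genes (3.62% higher and 3.72% lower). The groups did not overlap for 5 of 7, 2 with the GALNT3-OE-labelled libraries above and 3 with them below, against 36.2% of all tested genes (20.9% above and 15.3% below). KRT81, one of those below, averaged 0.949 FPKM in the GALNT3-OE-labelled libraries and 1.49 FPKM in the vector-labelled libraries. It passed the filter of 1 FPKM only through the vector-labelled group, so its entry among those below is no independent support. Of the 5 without overlap, KRT18 and KRT8 lay above, at more than 100 FPKM. KRT7, KRT15 and KRT81 lay below, with means under 8 FPKM in both groups. The groups overlapped for KRT80 (log2 difference -0.32) and KRT10 (0.08). Since 0 of 7 were called, no link between level and direction is read from this.

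**Figure D2:**
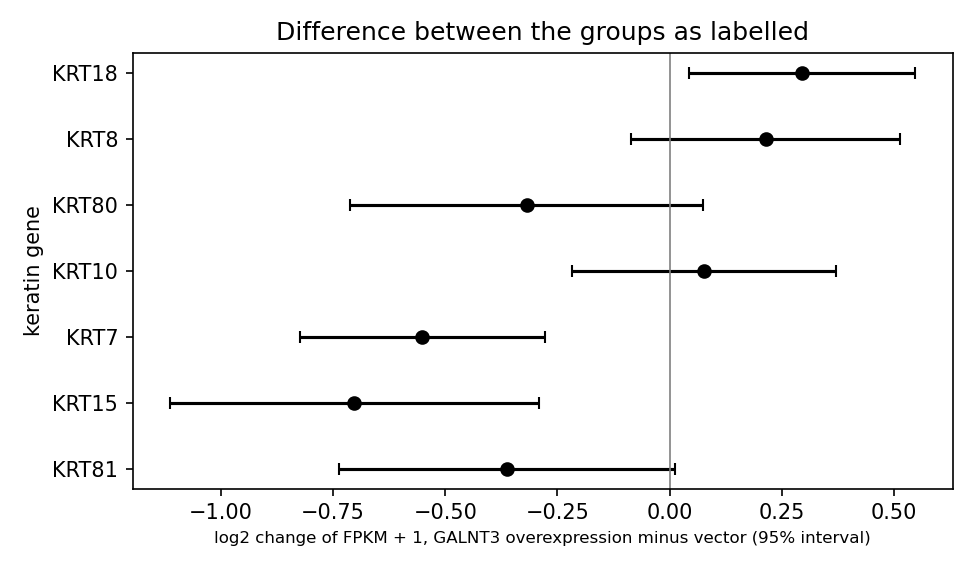
Log2 difference of FPKM + 1 (GALNT3-OE-labelled minus vector-labelled libraries) for the 7 tested keratins, with 95% intervals from limma before adjustment for the number of genes. The intervals of KRT18, KRT7 and KRT15 leave out 0, and the other 4 include it.

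The balance of simple keratins within a library was compared next, a ratio chosen after the levels were seen. KRT18 exceeded KRT8 3.04-fold and 2.92-fold in the GALNT3-OE-labelled libraries, against 2.63-fold and 3.02-fold in the vector-labelled libraries, and these ranges overlapped. KRT8 exceeded KRT7 34.1-fold and 27.7-fold in the GALNT3-OE-labelled libraries, against 18.8-fold and 15.2-fold in the vector-labelled libraries. KRT18 exceeded KRT7 103.6-fold and 80.9-fold, against 49.3-fold and 46.0-fold. Since KRT18 and KRT8 were above and KRT7 below without overlap, the separation of both ratios to KRT7 follows from the levels and adds no evidence. Ratios within a library do not change with its scaling. Over the whole family, type I message exceeded type II message 2.74-fold and 2.49-fold in the GALNT3-OE-labelled libraries, against 2.22-fold and 2.41-fold in the vector-labelled libraries. All type I keratins other than KRT18 together reached only 0.0738-fold and 0.0584-fold of the type II message, against 0.0709-fold and 0.0905-fold, so the type I side was almost all KRT18.

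**Figure D3:**
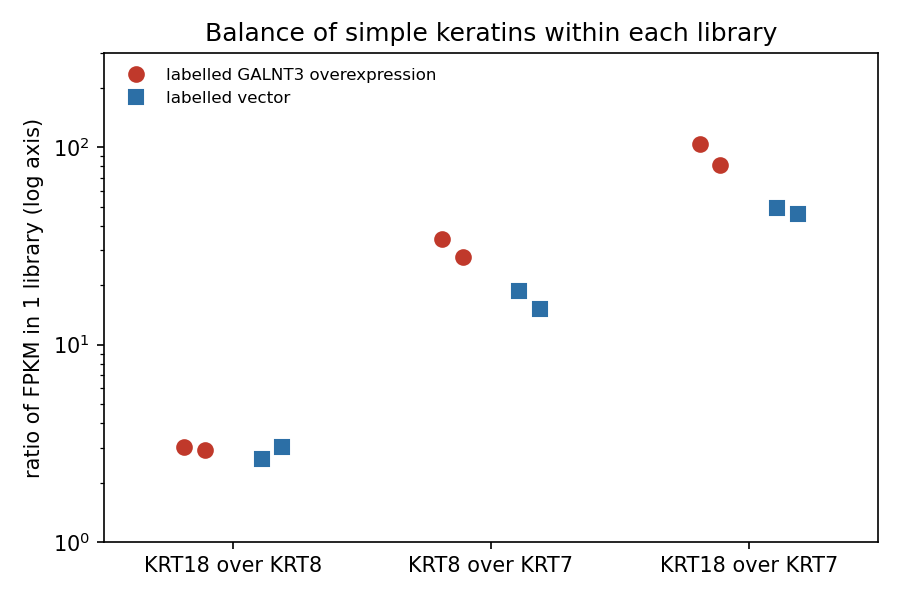
Ratios of FPKM between simple keratins within each library on a log axis, with a point per library. KRT18 over KRT8 lies between 2.63 and 3.04 in all 4 libraries, and the ratios to KRT7 are higher in both GALNT3-OE-labelled libraries than in both vector-labelled ones.

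Of 18 stratified keratins, 13 were listed at 0 in every library. Among these were both members of the basal pair, KRT5 and KRT14, the suprabasal KRT1 and KRT2, the corneal KRT3 and KRT12, the mucosal KRT13, KRT77, and KRT6A, KRT6B, KRT6C, KRT16 and KRT17. Several have near copies (KRT6A and KRT6C were identical at 97.9% of aligned coding bases, KRT14 and KRT16 at 87.8%), and a value of exactly 0 in this table may be a failed estimate. RPL21, a ribosomal protein gene, had 124 and 0 FPKM in the GALNT3-OE-labelled libraries and 0 and 70.7 FPKM in the vector-labelled libraries. Of the 78 ribosomal protein genes in the table, it was the only one that both averaged 10 FPKM or more and had a 0. Of the keratins listed at 0, KRT5 shared 3.99% of its 50-base stretches and KRT1 shared 0%.

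KRT10 and KRT15 were the stratified keratins above the filter, and their usual type II partners, KRT1 and KRT5, were listed at 0. KRT10, the suprabasal keratin that pairs with KRT1 (chromosome 17, 40818117 to 40822595, minus strand), stood at 10.3 and 8.18 FPKM in the GALNT3-OE-labelled libraries, against 9.13 and 8.17 FPKM in the vector-labelled libraries. The groups overlapped, and the log2 difference was 0.08 ± 0.13 (SE; 95% interval -0.22 to 0.37; limma, adjusted p = 0.947). TMEM99 is annotated on the opposite strand of the KRT10 locus. Opposite-strand genes also overlap KRT7 (KRT7-AS and KRT87P), KRT80 (LINC00592) and KRT81 (KRT86), and KRT8 and KRT18 overlap each other. The labels name a stranded kit, but whether counting used the strand is not given in the sources used here.

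KRT15, a basal-layer keratin also known from hair follicle stem cells (chromosome 17, 41513743 to 41522529, minus strand), had a log2 difference larger in size than those of the other tested keratins with all 4 libraries and a pseudocount of 1. It stood at 1.85 and 1.83 FPKM in the GALNT3-OE-labelled libraries, against 2.85 and 4.55 FPKM in the vector-labelled libraries. The groups did not overlap, and the vector libraries differed more from each other than the GALNT3-OE-labelled ones did. The mean was 50.3% lower, with a log2 difference of -0.70 ± 0.18 (SE; 95% interval -1.11 to -0.29). Its limma p was 0.00468 before adjustment and 0.268 after it. Without vector replicate 2, the highest library, the log2 difference was -0.44, smaller in size than those of KRT7 (-0.58) and KRT81 (-0.46), and without vector replicate 1 it was -0.97. With a pseudocount of 5 it was -0.34, against -0.35 for KRT7. The other stratified keratins above 0 were KRT4, KRT9 and KRT76. KRT4 was listed at 0 and 0.0522 FPKM, against 0.0235 and 0 FPKM. KRT9 (0.0238 FPKM) and KRT76 (0.0213 FPKM) were above 0 only in vector replicate 2.

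KRT80, a type II keratin found in many epithelia (chromosome 12, 52168996 to 52192000, minus strand), followed KRT18 and KRT8 in level. It stood at 14.9 and 22.2 FPKM in the GALNT3-OE-labelled libraries, against 21.9 and 24.04 FPKM in the vector-labelled libraries. The groups overlapped, and the low value was GALNT3-OE-labelled replicate 1. The log2 difference was -0.32 ± 0.17 (SE; 95% interval -0.71 to 0.07; limma, adjusted p = 0.770). It was -0.05 without GALNT3-OE-labelled replicate 1 and -0.59 without GALNT3-OE-labelled replicate 2. Of the other 5 epithelial keratins outside both classes, KRT23 was at 0.0235 FPKM in vector replicate 1 and at 0 elsewhere, and KRT24, KRT78, KRT79 and KRT222 were listed at 0 throughout.

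Messages of hair keratins were present at a low level and came mainly from KRT81. Of 17 hair and nail keratins, 8 were above 0 in some library and 1 was tested. KRT81, a type II keratin of the hair cortex (chromosome 12, 52285913 to 52291534, minus strand), stood at 0.709 and 1.19 FPKM in the GALNT3-OE-labelled libraries, against 1.66 and 1.32 FPKM in the vector-labelled libraries. The groups did not overlap, though the gap between the nearest libraries was small. The log2 difference was -0.36 ± 0.16 (SE; 95% interval -0.74 to 0.01; limma, adjusted p = 0.693), and it was -0.18 without GALNT3-OE-labelled replicate 1, -0.54 without GALNT3-OE-labelled replicate 2 and -0.13 with a pseudocount of 5.

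KRT86, whose sequence is compared with KRT81 above, stood at 0.307 and 0.296 FPKM in the GALNT3-OE-labelled libraries, against 0.303 and 0.473 FPKM in the vector-labelled libraries. Summing KRT81 and KRT86 lessens the effect of an exchange between them. It does not remove it, because their transcript lengths differ and shared fragments may have been dropped or counted for both. The sum was 1.02 and 1.49 FPKM in the GALNT3-OE-labelled libraries, against 1.96 and 1.80 FPKM in the vector-labelled libraries. The sum lay below both vector libraries in both libraries of the other group. KRT81 supplied most of the sum and was itself without overlap, while the groups overlapped for KRT86. The separation of the sum therefore largely restates KRT81 and adds no evidence. KRT83, another close relative, was at 0.0452 and 0 FPKM, against 0.0957 and 0.119 FPKM. KRT34, a type I hair keratin on chromosome 17, was at 0.0668 and 0.0673 FPKM in the GALNT3-OE-labelled libraries, against 0.197 and 0.0986 FPKM in the vector-labelled libraries. Both genes were below the filter and were not tested. The remaining 4 hair keratins above 0, KRT31, KRT32, KRT39 and KRT85, were each above 0 in 1 vector library. In the whole family 7 keratins were above 0 in exactly 1 library, all of them in a vector library (2 in vector replicate 1 and 5 in vector replicate 2), at 0.0164 to 0.0332 FPKM. Over all genes, 14767 and 14705 were above 0 in the GALNT3-OE-labelled libraries, against 14891 and 14825 in the vector-labelled libraries. The share of all genes above 0 in exactly 1 library was not computed, so no difference between the groups is read from this count. KRT33A, KRT33B, KRT35, KRT36, KRT37, KRT38, KRT40, KRT82 and KRT84, the other hair keratins, were listed at 0 throughout. All 9 keratins of the inner root sheath and companion layer of the hair follicle (KRT25, KRT26, KRT27, KRT28, KRT71, KRT72, KRT73, KRT74 and KRT75) were also listed at 0.

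**Figure D4:**
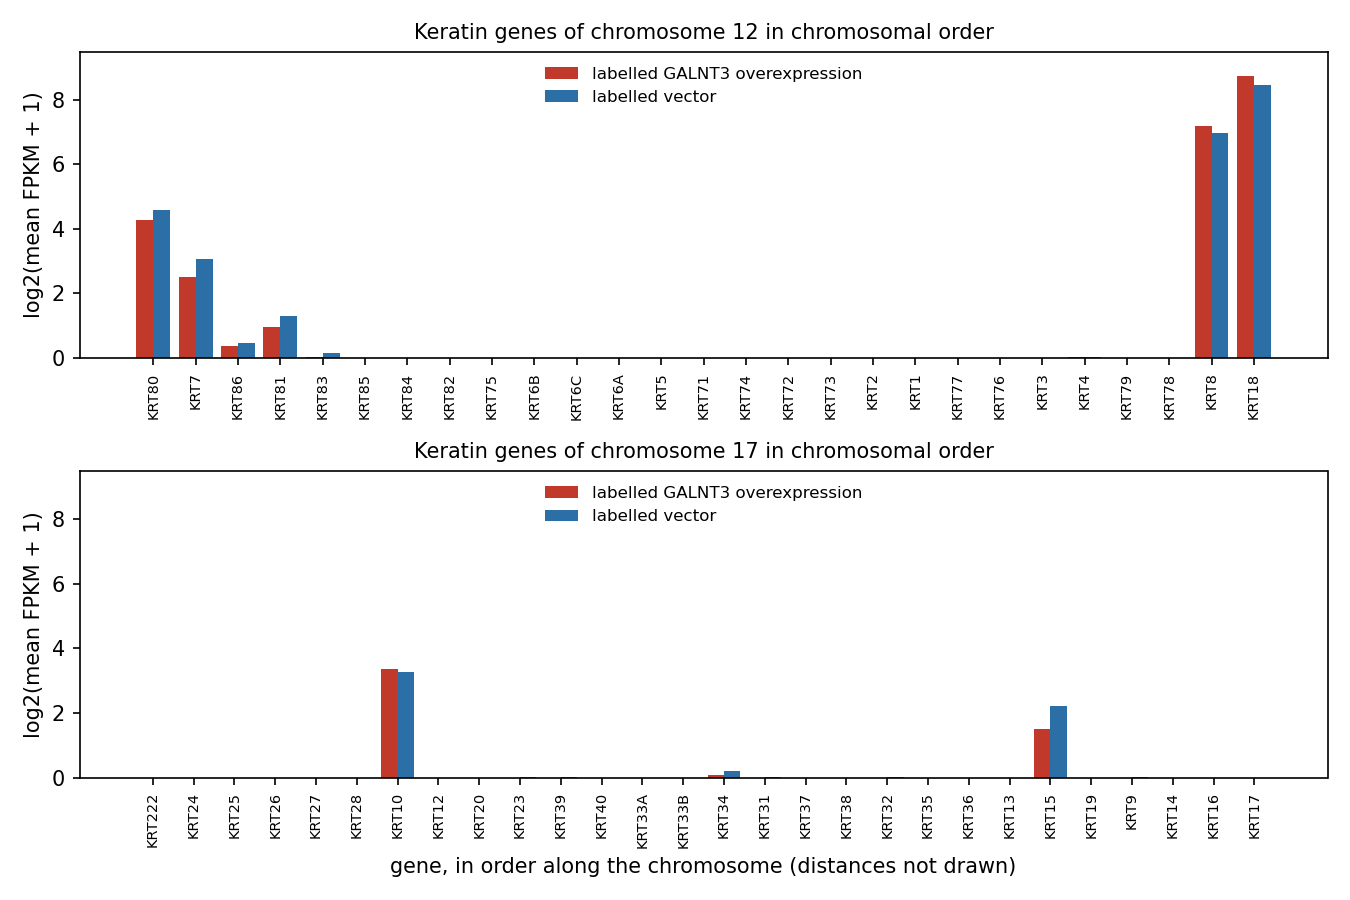
Log2 of the mean FPKM + 1 of each keratin gene in its order along chromosomes 12 and 17, with a bar per group (n = 2 libraries; distances between genes not drawn). On chromosome 12 the expressed genes stand at the ends of the cluster, KRT80 to KRT81 on one side and KRT8 with KRT18 on the other, and on chromosome 17 KRT10 and KRT15 stand alone among genes near 0.

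The positions of the tested keratins, which the choice of members did not use, are given as a description without a test. All 55 keratins lie in clusters on chromosomes 12 and 17 (GENCODE 29). On chromosome 12, which holds the type II genes and KRT18, 5 of 27 keratins were tested, and they lay at the ends of the cluster. KRT80, KRT7, KRT86 and KRT81 are neighbours at one end, and KRT8 and KRT18 are neighbours at the other. Between KRT81 and KRT8 lie 21 keratin genes, of which 17 were listed at 0 in every library, and no library value there exceeded 0.119 FPKM. On chromosome 17, 2 of 28 keratins were tested. KRT10 and KRT15 are not neighbours, and the highest value among the other 26 was 0.197 FPKM, for KRT34. KRT15 lies next to KRT19, which was listed at 0. The annotated spans of KRT7 and KRT86 overlap on the same strand.

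Keratins were set beside markers of cell identity. Besides KRT8 and KRT18, the epithelial markers were low or listed at 0: EPCAM was at 1.40 and 0.670 FPKM in the GALNT3-OE-labelled libraries, against 0.543 and 0.459 FPKM in the vector-labelled libraries, and CDH1, the epithelial cadherin, at 0.131 and 0.209 FPKM, against 0.0495 and 0.0967 FPKM. CLDN4, a tight junction claudin, lay the other way, at 0.218 and 0.157 FPKM in the GALNT3-OE-labelled libraries, against 0.339 and 0.368 FPKM in the vector-labelled libraries. KRT19, CLDN7 and ESRP1 were listed at 0. VIM, the intermediate filament protein of mesenchymal cells, was at 738 and 723 FPKM, against 746 and 696 FPKM, above KRT18 in each library. VIM exceeded KRT18 1.68-fold and 1.72-fold in the GALNT3-OE-labelled libraries, against 2.02-fold and 2.11-fold in the vector-labelled libraries. The other listed mesenchymal markers were far lower than VIM. FN1, COL1A1 and ZEB1 did not exceed 5.09, 4.89 and 3.35 FPKM in any library. CDH2 was at 0.665 and 0.816 FPKM in the GALNT3-OE-labelled libraries, against 0.460 and 0.405 FPKM in the vector-labelled libraries. Without overlap, CDH2 lay above and ZEB1 below in the GALNT3-OE-labelled libraries, while the groups overlapped for VIM, FN1 and COL1A1. Groups did not overlap for 36.2% of all tested genes, so no difference is read from these markers. COL1A2 was above 0 only in vector replicate 1, at 0.00876 FPKM. Of 6 squamous or basal markers, 4 (KRT5, KRT14, KRT6A and DSG3) were listed at 0, and the list summed to 0.0220 to 0.0884 FPKM per library. Of 6 markers of lung alveolar type II cells only ABCA3 was tested, SFTPA1 and SFTPC were listed at 0, and the lung lineage factor NKX2-1 did not exceed 0.0764 FPKM. The 5 leukocyte markers summed to 0.307 to 1.36 FPKM, almost all of it CD14, and the 4 endothelial markers to 0.246 to 0.638 FPKM.

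Genes that work with keratins were described from 5 lists, and 0 of their tested members passed limma over all genes. Of 6 tested genes for other intermediate filaments, the median log2 difference was 0.03, against 0.02 over all tested genes, and 0 had an unadjusted p below 0.05. LMNA, a nuclear lamin, was at 289 and 304 FPKM, against 273 and 261 FPKM (adjusted p = 0.829), and LMNB1, LMNB2 and VIM had adjusted p of 0.965, 0.890 and 0.992.

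Of 10 tested plakins and desmosomal plaque genes, which anchor keratin filaments at junctions, 2 had an unadjusted p below 0.05, both higher in the GALNT3-OE-labelled libraries, against 7.34% of all tested genes (3.62% higher), and the median was 0.01. DSP, desmoplakin, which links keratins to the desmosome, was at 6.16 and 4.65 FPKM, against 3.72 and 3.06 FPKM in the vector-labelled libraries (limma, adjusted p = 0.347). PKP2, a plakophilin, was at 13.5 and 13.1 FPKM, against 10.3 and 8.32 FPKM (adjusted p = 0.254). The groups of both genes did not overlap, as for 36.2% of all tested genes. PKP4 and JUP, plakoglobin, had adjusted p of 0.770 and 0.877. DSG2 was the only tested desmosomal cadherin of 7, at 8.61 and 8.23 FPKM, against 9.11 and 7.82 FPKM (adjusted p = 0.997).

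Of 10 tested transcription factors of keratin genes and epithelial identity, 3 had an unadjusted p below 0.05, 2 higher and 1 lower, against 7.34% of all tested genes (3.62% higher and 3.72% lower), and the median was 0.02. KLF4, a factor of epithelial differentiation, was at 3.89 and 5.35 FPKM, against 2.88 and 3.09 FPKM (limma, adjusted p = 0.414). PITX1 was at 5.13 and 5.47 FPKM, against 4.11 and 4.30 FPKM (adjusted p = 0.589). ELF3, an epithelial ETS factor and the lower one, was at 0.825 and 0.623 FPKM, against 1.89 and 1.29 FPKM (adjusted p = 0.330). ELF3 passed the filter of 1 FPKM only through the vector-labelled group, so its entry as lower is no independent support. TFAP2C had an adjusted p of 0.746. GRHL2 and ZNF750 were listed at 0 and TP63, the master factor of basal epithelium, did not exceed 0.0230 FPKM.

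All 15 listed proteins that bind or modify keratins were tested, and their median log2 difference was 0.06. YWHAE, a 14-3-3 protein, FAM83H, a casein kinase scaffold on keratin filaments, and PNN, pinin, had adjusted p of 0.794, 0.725 and 0.811.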

How the data were processed

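RNA of H2030 cells was measured in 4 libraries. The authors deposited FPKM per gene symbol. The header names no unit, which was read from the values. The submitters' processing notes name TopHat, GenomeStudio 2010.1 and the builds hg19 and GRCh38 without saying which step used them. Which counting program, gene models and filters were applied is not given in the sources used here. Total depth is unknown. In the deposited order, 2615 rows, 6 of them keratins (KRT7, KRT81, KRT15, KRT4, KRT34, KRT83), stand out of alphabetical order. Below 0.2 FPKM the lowest value fell with transcript length across 1797 displaced genes (Spearman's rho -0.42) and 1565 genes in order (-0.29).

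Genes averaging 1 FPKM or more were tested on log2(FPKM + 1), which understates changes of low genes, with limma 3.58.1 (eBayes with trend, group as the only term; R 4.3.3), two-sided, with Benjamini-Hochberg adjustment over all tested genes and a threshold of 0.05. The procedure was tested on simulated data. Shared 50-base stretches, positions and coding sequences came from GENCODE 29 (the transcript with the longest coding sequence per gene; mafft 7.526 alignments). Replicate numbers are shared between groups, but no label says that they pair libraries. Members, classes, lists and the rule for named genes (tested keratins, keratins above 0, GALNT3, and up to 4 members per list by adjusted p) were chosen with earlier results of these data known. Python 3.11.15 was used for tables and figures. Alternatives covered scaling, pseudocount, filter, trend, replicate block and each library left out. Values of 1 listed gene and some sequences are not reported here.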

Additional observations from a re-analysis of the deposited data

How the results depend on the processing

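The 0 keratins called stayed 0 under every alternative but the replicate block, and KRT7, KRT15, KRT18, KRT8, KRT80 and KRT81 kept their direction throughout. No label supports the block, though deviations of same-numbered libraries correlated at r = 0.22 across genes. Its added term leaves fewer residual degrees of freedom than the 2 of the main fit. With the block, 443 genes and 3 keratins passed: KRT7 at -0.55, KRT15 at -0.70 and KRT18 at 0.30 (limma, adjusted p = 0.0111, 0.0143 and 0.0118). So did 5 companion genes, among them DSP, PKP2, KLF4 and ELF3. Outside the block the adjusted p of KRT7 ran from 0.0993 to 0.526. Calls over all genes went from 55 to 12 with every gene above 0 and to 31 with a mean of at least 5 FPKM, where KRT15, KRT81 and GALNT3 were not tested. Leaving out single libraries gave 23 to 83 calls, the lowest when vector replicate 1 was left out (42 without vector replicate 2, and 79 without GALNT3-OE-labelled replicate 1). It gave -0.071 to 0.22 for KRT10, the log2 difference being -0.071 without GALNT3-OE-labelled replicate 1 and 0.08 with all libraries. The log2 ratio of summed simple keratins, 0.26, ran from 0.16 to 0.37, and that of summed stratified keratins, -0.16, ran from -0.30 without GALNT3-OE-labelled replicate 1 to -0.03 without GALNT3-OE-labelled replicate 2, and was -1.001 without KRT10. The causes were not tested. Levels below 0.2 FPKM rest on few fragments.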

Other observations

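Rows of keratin pseudogenes, which no comparison used, held almost no message. KRT8P41 was at 0.0336 and 0.0312 FPKM in the GALNT3-OE-labelled libraries, against 0.0281 and 0.0305 FPKM in the vector-labelled libraries. KRT18P55 was at 0 and 0.0581 FPKM, against 0.0523 and 0 FPKM. KRT16P2 was at 0.0362 FPKM in vector replicate 2 and at 0 elsewhere, and KRT16P3, KRT19P2 and KRT42P were listed at 0. Other KRT8 and KRT18 copies with symbols of this form, KRT18P11 and KRT8P3 among them, had no row in the deposited data. Any message given to those copies can therefore not be seen here. Among intermediate filament genes below the filter, chosen after the values were seen, the groups did not overlap for the neurofilament genes NEFL and NEFM. Groups did not overlap for 36.2% of all tested genes either, so no difference is read from this. For the other listed genes below the filter, INA and PRPH among them, the groups overlapped. The neurofilament gene NEFH was at 0 and 0.0288 FPKM in the GALNT3-OE-labelled libraries, against 0.0130 and 0.0282 FPKM in the vector-labelled libraries. NEFL was at 1.23 and 1.42 FPKM, against 0.580 and 0.673 FPKM, and NEFM at 0.174 and 0.116 FPKM, against 0.0593 and 0.0646 FPKM. Neither was tested.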
